A study of Mus musculus with 6 samples.

Results

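Cyclin-dependent kinase (CDK) inhibitor genes and the core genes of the p53 axis were followed in spleen RNA in 3 mutant and 3 control mouse libraries of strain C57BL/6. The 10 genes were taken by symbol from the 31771 Ensembl identifiers of the count table. All 10 were found, and all 10 were among the 19573 genes with enough counts to be tested. The mutants carried Cre recombinase driven from the VE-cadherin promoter (VEC-Cre), the Sleeping Beauty transposase (SB Transposase) and the onc2 transposon, and the controls are labelled WT, with none of these alleles named. VE-cadherin is made by endothelium, and blood cells that descend from embryonic endothelium can carry the recombined alleles as well, so a mutant spleen can hold both recombined and unrecombined cells, with transposon insertions that can differ between animals. Age, litter and the recombined share of cells are not stated. The libraries came from frozen spleen pieces, and since no label says outright that each is a separate animal, p-values measure the spread between these samples, which may be partly technical.

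CDK inhibitors stop cells from entering or completing the division cycle. The Cip/Kip proteins (p21, p27 and p57, encoded by Cdkn1a, Cdkn1b and Cdkn1c) bind a broad set of cyclin-CDK complexes, while the INK4 proteins (p16, p15, p18 and p19, encoded by Cdkn2a, Cdkn2b, Cdkn2c and Cdkn2d) bind CDK4 and CDK6, the kinases that work with D-type cyclins. Cdkn2a also encodes Arf from another first exon, and Arf restrains Mdm2, the ubiquitin ligase that keeps the transcription factor p53 (Trp53) at low levels. Cdkn1a, Mdm2 and Ccng1 are classical p53 targets, and in blood formation p21, p27, p57 and p18 are known for holding stem and progenitor cells in or near a resting state.

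Of the 10 genes, Cdkn1a rose in the mutant spleens, by 3.72 ± 0.43 on the log2 scale (fitted mutant over control ± SE, n = 3 libraries per group, adjusted p = 0.00902 by edgeR's quasi-likelihood test with Benjamini-Hochberg adjustment over all tested genes). The other 9 did not pass the threshold of 0.05. Over all tested genes 5.08% were called higher and 6.90% lower, and 1 of 10 higher and 0 of 10 lower are near these shares. At an unadjusted p under 0.05 edgeR gave 4 of the 10 genes higher and 1 lower, against 16.2% and 15.0% of all tested genes. DESeq2, with 14.5% and 14.4% of all tested genes called higher and lower, called 2 higher (Cdkn1a and Cdkn2a) and 1 lower (Cdkn1b). What set the genes apart from each other was how differently the 3 mutants stood: Cdkn1a was high in every one, Cdkn1b was below the controls in every one, and Cdkn1c, Cdkn2a, Cdkn2c, Cdkn2d and Trp53 had mutants on both sides of the control mean.

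Promoter sequence is shown for the genes whose upstream windows held a match to the p53 consensus, and for both windows of Cdkn2a, which held an E2F-type motif at each of its starts. RefSeq windows from 250 bases before to 50 bases after annotated starts (GRCm38.p6) matched 9 of the 10 genes, with 12 windows, and none was matched for Cdkn1c. A full p53 site was searched as a pair of adjoining consensus elements of 10 letters with at most 1 letter of the 20 off, a pattern that reads the same on both strands. It was found in 29 of 32851 windows of all genes (0.0883%), among them those of Ccng1 and of the upstream start of Cdkn1a. In these lines the capitals mark the p53 match for Cdkn1a and Ccng1, and the letters TTTNNCGC, an E2F-type motif searched on both strands, for the 2 windows of Cdkn2a:
Cdkn1a, chr17:29090898-29090977, plus strand: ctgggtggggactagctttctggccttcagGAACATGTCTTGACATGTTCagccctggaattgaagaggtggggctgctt
Ccng1, chr11:40755432-40755511, minus strand: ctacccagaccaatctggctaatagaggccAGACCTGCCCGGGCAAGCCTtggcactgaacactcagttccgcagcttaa
Cdkn2a upstream start, chr4:89294681-89294748, minus strand: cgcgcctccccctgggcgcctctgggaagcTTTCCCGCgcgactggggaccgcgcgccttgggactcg
Cdkn2a downstream start, chr4:89282399-89282442, minus strand: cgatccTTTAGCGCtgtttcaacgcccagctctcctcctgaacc
The Cdkn1a match begins 51 bases before the upstream start of the gene and 2841 bases before its downstream start, and the Ccng1 match begins 195 bases before the start. The E2F-type letters were in 1698 of the 32851 windows (5.17%), and besides Cdkn2a the window of Mdm2 held them. A match is a description of letters, and the windows without one say nothing of sites elsewhere, such as in introns.

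Cdkn1a encodes p21, which halts the cycle after p53 activation and also marks cells leaving division (ENSMUSG00000023067, GRCm38 chromosome 17, 29090976 to 29100727, 5 annotated transcripts). Its level was 6.09, 7.15 and 7.20 CPM (the count relative to the summed count of its library) in controls 1, 2 and 3, and 149, 60.2 and 59.5 CPM in mutants 1, 2 and 3. All mutants lay far above all controls, with mutants 2 and 3 almost level and mutant 1 well above them. Against the control mean the 3 mutants stood 21.9-fold, 8.84-fold and 8.73-fold higher. The counts behind these values were 450 to 571 in controls and 4478 to 10876 in mutants, so counting error was small beside the spread between libraries. The call was lost when any 1 control was left out (adjusted p = 0.0693 to 0.0695 by edgeR, with log2 fold changes of 3.65 to 3.78) and held without each mutant in turn (log2 3.17 to 3.96). An annotated gene on the opposite strand, AC167363.2, shares 7.7% of the exon bases of Cdkn1a, and since the strand setting of the counting is not stated, its reads cannot be separated from the Cdkn1a count. In a tissue piece, more or fewer cells of a type cannot be told apart from more or less RNA per cell, for Cdkn1a and for every gene below.

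The libraries differed in sex-linked transcripts. Xist, the transcript of X inactivation, was at 1513 CPM in mutant 1, 580 CPM in mutant 2 and 0.586 CPM in mutant 3, while the controls had 0.423 to 0.663 CPM. The Y-linked Ddx3y was at 0.0412, 0.0269 and 60.4 CPM in mutants 1, 2 and 3, against 55.0 to 62.7 CPM in controls. By both transcripts mutants 1 and 2 were female, and mutant 3 and the controls male, so sex differed in part with group. Cdkn1a was 21.9-fold and 8.84-fold above the control mean in mutants 1 and 2, and 8.73-fold in mutant 3, which shares low Xist with the controls. The part of sex in the Cdkn1a level was not tested. Cell type markers moved as well, and their calls stand beside 5.08% higher and 6.90% lower over all tested genes. The summed level of 10 B-cell markers was 6563 to 7417 CPM in controls and 51.3 to 108 CPM in mutants, with 10 of 10 called lower, and that of 10 T-cell markers 836 to 988 and 27.9 to 298 CPM, with 4 of 10 lower. Platelet and megakaryocyte markers summed to 345 to 642 CPM in controls and 1086 to 4622 CPM in mutants (3 of 7 higher), neutrophil and granule markers to 175 to 292 and 548 to 1881 CPM (4 of 10 higher), and 20 proliferation genes to 1126 to 1744 and 3762 to 6026 CPM (15 of 20 higher). Markers of the spleen's own tissue were present in all libraries. The 8 endothelial markers summed to 525 to 589 CPM in controls, with 434 to 790 CPM in mutants (1 of 8 higher, 1 lower). The endothelial marker called higher was Vwf, which is also on the platelet and megakaryocyte list and counted there (43.0 to 70.4 CPM in controls, 108 to 190 CPM in mutants). The 9 stromal markers summed to 791 to 1005 CPM in controls, with 103 to 292 CPM in mutants (6 of 9 lower). Some sums hide markers that went both ways: of the neutrophil and granule list in mutant 1, Prtn3 alone was at 416 CPM, while Elane, Camp, Ltf, S100a8, S100a9 and Ly6g were below their control means, and in mutant 3 the platelet and megakaryocyte marker Ppbp was below every control. In mutant 2 the T-cell marker Cd4 was at 197 CPM, against 85.0 to 107 CPM in controls, while the other T-cell markers were below every control. No marker of these lists was at 0 in any library, and their part in the results was not tested.

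**Figure D1:**
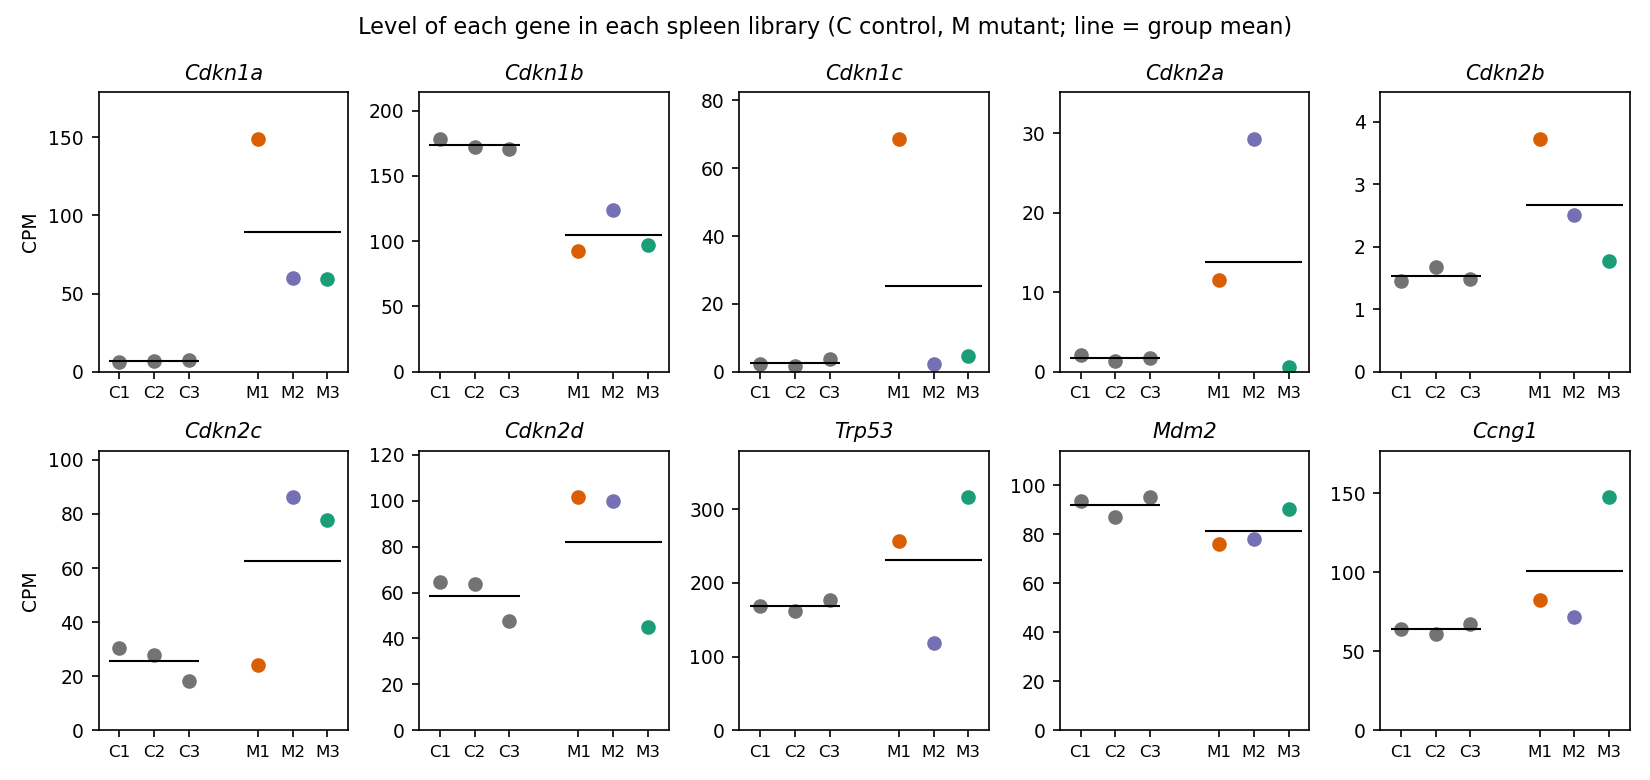
Level in CPM (vertical axes, linear from 0, scaled per gene) of the 10 genes in control libraries C1 to C3 (grey) and mutant libraries M1 to M3 (orange, purple, green), with group means as lines. Cdkn1a lies between 59.5 and 149 CPM in the mutants against 6.09 to 7.20 CPM in the controls, while Cdkn1c is high in M1 and Cdkn2a in M1 and M2.

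Cdkn1b encodes p27, the inhibitor that accumulates in resting lymphocytes (ENSMUSG00000003031, chromosome 6, 134920401 to 134925513). It was at 179, 172 and 171 CPM in the 3 controls, against 92.2, 124 and 97.4 CPM in mutants 1, 2 and 3. Every mutant was below every control, an arrangement found for 22.6% of all tested genes, and the 1 member below in this way stood against 3 members with every mutant above (Cdkn1a, Cdkn2b and Ccng1), an arrangement found for 18.0% of tested genes. The fitted log2 fold change was -0.71 ± 0.20 (adjusted p = 0.0691 by edgeR, unadjusted p = 0.0110). The value passed with upper-quartile scaling (adjusted p = 0.0468), by DESeq2 (0.0181), by limma-voom with sample weights (0.0202) and without mutant 2 (0.00766), and ranged up to 0.241 without control 1. The B-cell and T-cell marker sums given above were also lower in these mutants, though the T-cell marker Cd4 was above every control in mutant 2. The part of these markers was not tested.

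Cdkn1c encodes p57, an imprinted inhibitor expressed from the maternal allele (ENSMUSG00000037664, chromosome 7, 143458339 to 143461050). Controls had 2.21, 1.78 and 3.76 CPM, and mutants 1, 2 and 3 had 68.7, 2.29 and 4.48 CPM. The groups overlapped, and 1 library decided the group difference: mutant 1 was 26.6-fold above the control mean, mutant 3 was 1.73-fold above it and mutant 2 was 0.885 of it. Its log2 fold change of 3.28 ± 1.33 did not pass (adjusted p = 0.156 by edgeR) and was 0.41 without mutant 1. Mutant 1 also had the highest summed level of 7 stem and progenitor markers, 1250 CPM against 148 to 157 CPM in the control libraries, with 104 CPM in mutant 2 and 401 CPM in mutant 3. Of the 7 markers 1 was called, Mecom, which was lower (adjusted p = 0.0378 by edgeR), against 5.08% higher and 6.90% lower over all tested genes. In mutant 1 Flt3 and Mecom were below every control while the other 5 were above. The part of these markers was not tested. In the GENCODE annotation the antisense gene Gm44732 shares 30.7% of the exon bases of Cdkn1c on the other strand, so by the same limit antisense reads cannot be separated from the Cdkn1c count.

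Of 9 other tested genes of the imprinted domain around Cdkn1c, 1 rose and 8 did not pass, against 5.08% higher and 6.90% lower over all tested genes. Their median log2 fold change was 0.50, against 0.10 over all tested genes. The gene that rose was Phlda2, which like Cdkn1c is expressed from the maternal allele, at 0.398 to 0.492 CPM in controls, against 2.24, 1.52 and 3.63 CPM in mutants 1, 2 and 3 (log2 2.43 ± 0.44, adjusted p = 0.0244 by edgeR). Ascl2, a transcription factor of the same domain, was at 0.0513 to 0.328 CPM in controls and highest in mutant 3, at 8.72 CPM (adjusted p = 0.0880). Kcnq1ot1, the long RNA that silences the paternal copy of the domain, was at 24.5, 7.22 and 17.7 CPM in mutants 1, 2 and 3 and at a mean of 12.4 CPM in controls. Thus the mutant that was highest for Cdkn1c was mutant 1, and for Phlda2 and Ascl2 it was mutant 3.

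Cdkn2a, the gene of p16 and Arf (ENSMUSG00000044303, chromosome 4, 89274471 to 89294653), had the widest ratio between its highest and lowest mutant of the 10 genes. It was at 2.12, 1.35 and 1.77 CPM in controls, against 11.6, 29.3 and 0.534 CPM in mutants 1, 2 and 3. Mutants 1 and 2 were 6.62-fold and 16.8-fold above the control mean, while mutant 3 was at 0.306 of it and below every control. The count was 2179 in mutant 2 and 41 in mutant 3, and 105 to 157 in the controls, so the low value rests on few reads. Its log2 fold change of 3.04 ± 1.25 did not pass (adjusted p = 0.159 by edgeR); it passed by DESeq2 (0.0245) and without mutant 3 (0.0256). It was 1.77 without mutant 2 (adjusted p = 0.296), 1.68 and 1.66 by limma-voom with a common and a group variance and 0.25 with sample weights. Mutants 1 and 2 were the mutants with high Xist, and the part of sex in the Cdkn2a level was not tested. The counts join the 2 starts printed above, so p16 and Arf transcripts were not separated.

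Genes whose pattern over the 6 libraries was most like that of Cdkn2a were Cebpa, a myeloid transcription factor that slows division (Pearson r = 0.9965), and Ctif (r = 0.9961). They were ranked among 11323 candidates, the tested genes of sufficient level that were not left out by kind. Cebpa was at 20.4 to 23.9 CPM in controls, against 61.1, 99.3 and 12.5 CPM in mutants 1, 2 and 3, the same order as Cdkn2a. Monocyte and macrophage markers summed to 1637 to 2225 CPM in controls and to 451, 9485 and 1038 CPM in mutants 1, 2 and 3. The sum was highest in mutant 2, as was Cdkn2a, but below the controls in mutant 1, where Cdkn2a was above them. In mutant 1 the markers Cd14, Cd68 and F13a1 were above every control, and the others of the list below every control. Of the 9 markers 1 was called, F13a1, which was higher (adjusted p = 0.0359 by edgeR). Over all tested genes 5.08% were higher and 6.90% lower. Cebpa was also on the list of factors that act on Cip/Kip genes. Likeness was measured across libraries of 2 groups and is a description with no test.

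Cdkn2b, which encodes the TGF-beta responsive inhibitor p15 and lies 11645 bases from Cdkn2a (ENSMUSG00000073802, chromosome 4, 89306299 to 89311039), stayed low in every library. Controls had 1.45, 1.67 and 1.48 CPM and mutants 1, 2 and 3 had 3.73, 2.5 and 1.77 CPM, with the mutants above the controls and mutant 3 nearest to them. In the fit its log2 fold change was 0.81 ± 0.41 (adjusted p = 0.234 by edgeR), and 0.53 without mutant 1. On the other side of Cdkn2a the nearest tested gene was Mtap, an enzyme of methionine salvage, at 36.4 to 38.0 CPM in controls, against 44.4, 26.9 and 86.6 CPM in mutants 1, 2 and 3. Mtap was highest in mutant 3 and lowest in mutant 2, where Cdkn2a was lowest and highest.

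Regulators of the Cdkn2a and Cdkn2b locus went in both directions. Of 21 tested genes 2 rose, 3 fell and 16 did not pass, against 5.08% higher and 6.90% lower over all tested genes. Their median log2 fold change was 0.26. Cbx7, a Polycomb reader that represses the locus, fell from 142 to 214 CPM in controls to 22.4, 43.6 and 46.3 CPM in mutants 1, 2 and 3 (log2 -2.32 ± 0.35, adjusted p = 0.0160 by edgeR). Ezh2, the methyltransferase of the same silencing system, rose from 36.9 to 46.4 CPM in controls to 90.5, 93.9 and 101 CPM (log2 1.15 ± 0.18, adjusted p = 0.0163). The others called were Cbx8, a relative of Cbx7, and Dmtf1, an activator of Arf, both lower, and Twist1, a repressor of the locus, higher. For these 5 genes every mutant lay on the same side of every control, while Cdkn2a was high in mutants 1 and 2 and low in mutant 3. They were picked by adjusted p, which favours such a separation. Over all tested genes 18.0% had every mutant above every control and 22.6% every mutant below. The part of these regulators in the Cdkn2a level was not tested.

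Cdkn2c encodes p18 (ENSMUSG00000028551, chromosome 4, 109660876 to 109667189) and was high in a different pair of mutants. It was at 30.5, 27.9 and 18.2 CPM in controls, against 24.2, 86.2 and 77.7 CPM in mutants 1, 2 and 3. Mutants 2 and 3 were 3.38-fold and 3.04-fold above the control mean, and mutant 1 lay within the control range. The fitted log2 fold change was 1.31 ± 0.52 (adjusted p = 0.149 by edgeR), and without mutant 1 it was 1.72 and passed (adjusted p = 0.0199).

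The genes most like Cdkn2c were Tspo2, a membrane protein of erythroid cells (r = 0.9979), and Ptdss2, a phosphatidylserine synthase (r = 0.9966). Tspo2 was at 15.4 to 32.2 CPM in controls, against 22.5, 114 and 86.4 CPM in mutants 1, 2 and 3. The 9 erythroid markers other than globin genes summed to 1411 to 2497 CPM in controls and to 1192, 6942 and 2723 CPM in mutants 1, 2 and 3. The sum was thus above the controls in the same mutants as Cdkn2c, but only slightly in mutant 3. There Alas2 (458 CPM) and Slc4a1 (35.8 CPM) were below every control, while the other non-globin markers were above every control. With the globin genes Hbb-bs and Hba-a1 included, the 11 markers summed to 52522 to 82369 CPM in controls. In mutants 1, 2 and 3 that sum was 5332, 48366 and 3980 CPM, lowest in mutant 3, where Cdkn2c was high. Of the 11 markers 3 rose, against 5.08% higher and 6.90% lower over all tested genes. The part of these markers in the Cdkn2c level was not tested.

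Cdkn2d, which encodes the INK4 protein p19 (ENSMUSG00000096472, chromosome 9, 21288410 to 21291407), was the most abundant INK4 gene per length in 5 of the 6 libraries. Controls had 64.6, 63.7 and 47.8 CPM, and mutants 1, 2 and 3 had 102, 99.8 and 45.2 CPM. Mutants 1 and 2 were above the controls and mutant 3 just below them, the same split by library as for Cdkn2a, with a much smaller range. A fitted log2 fold change of 0.51 ± 0.37 did not pass (adjusted p = 0.392 by edgeR), and was 0.29 without mutant 2 and 0.82 without mutant 3. Kri1, a gene 440 bases from Cdkn2d, was at 29.9 to 33.4 CPM in controls, against 41.1, 15.2 and 31.3 CPM in the mutants.

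**Figure D2:**
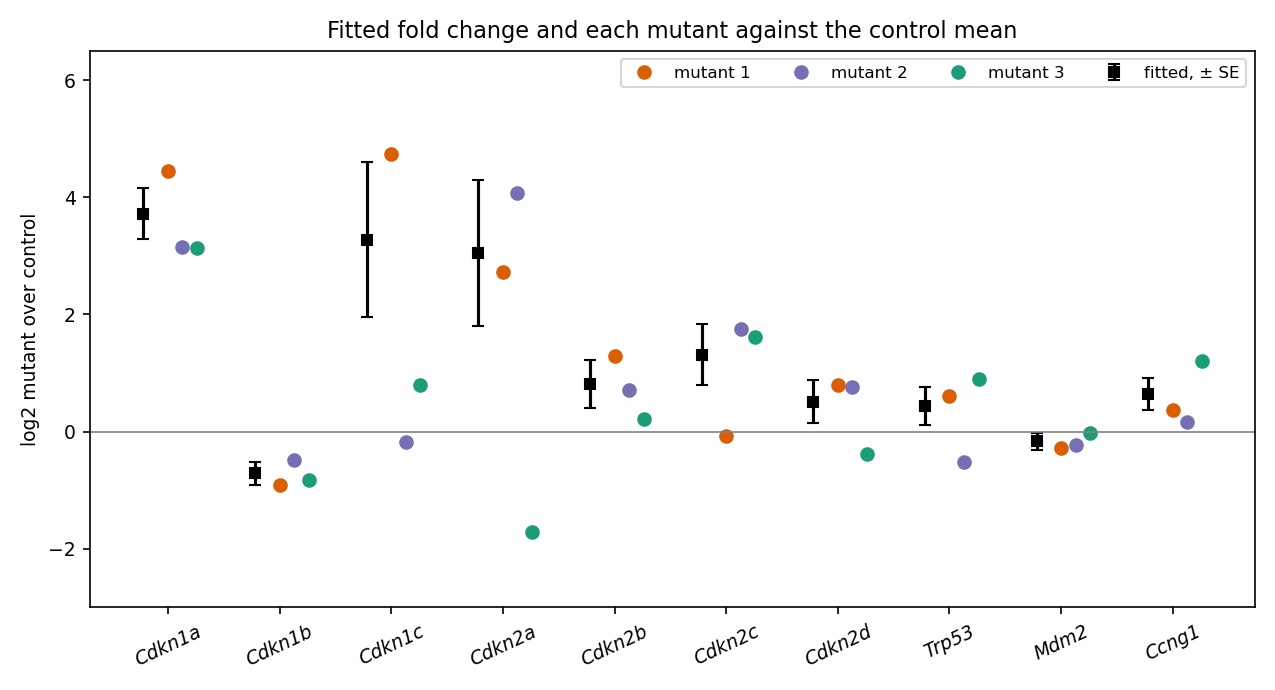
Log2 ratio of mutant over control (vertical axis) for each gene, with the fitted value ± SE as black squares and each mutant's CPM against the control mean as coloured points. The 3 mutants agree in sign for Cdkn1a, Cdkn1b, Cdkn2b, Mdm2 and Ccng1 and disagree for the other 5 genes.

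Scaled by merged exon length (RPKM), the makeup of the inhibitor pool differed between groups. In controls Cdkn1b took 40.3% to 46.2% and Cdkn2d 37.5% to 43.1% of the summed RPKM of the 7 inhibitor genes, and Cdkn1a took 1.76% to 2.5%. In mutants 1, 2 and 3 Cdkn1a took 23.1%, 10.1% and 16.8%, and Cdkn1b 11.1%, 16.3% and 21.5%. The ratio of Cdkn1a to Cdkn1b RPKM was 0.0437 to 0.0541 in controls and 2.07, 0.622 and 0.783 in mutants 1, 2 and 3. Cdkn1c took 18.5% in mutant 1, Cdkn2a 14.9% in mutant 2 and Cdkn2c 29.0% in mutant 3. The pool as a whole was 81.1 to 97.2 RPKM in controls and 182, 168 and 99.7 RPKM in the mutants, so mutant 3 stood near the control range. These shares describe the 7 genes and were not tested.

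**Figure D3:**
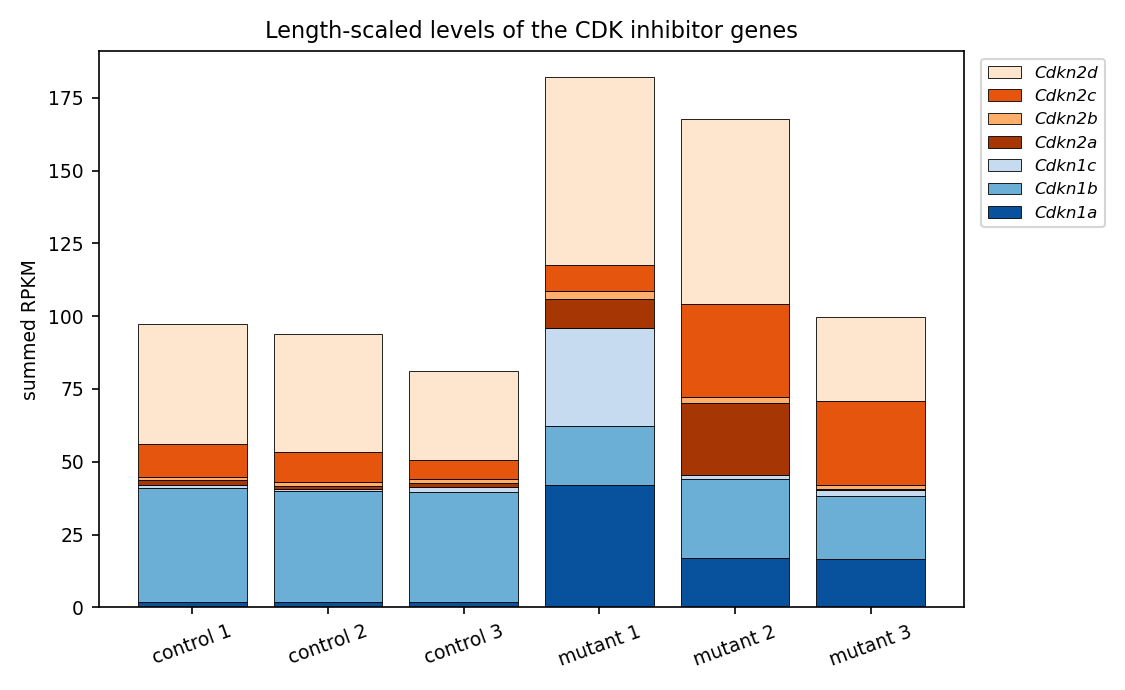
Summed RPKM (vertical axis, from 0) of the 7 CDK inhibitor genes in each library, Cip/Kip genes in blue and INK4 genes in orange. Cdkn1b and Cdkn2d fill most of the control bars, and Cdkn1a takes 10.1% to 23.1% of the mutant bars.

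In controls the order of mean RPKM over the 10 genes was Trp53 (41.8 ± 1.72, SD, n = 3), Cdkn1b (38.2 ± 0.925), Cdkn2d (37.3 ± 6.00), Ccng1 (18.3 ± 0.947), Mdm2 (18.1 ± 0.851), Cdkn2c (9.50 ± 2.41), Cdkn1a (1.92 ± 0.177), Cdkn2a (1.49 ± 0.332), Cdkn1c (1.27 ± 0.510) and Cdkn2b (1.10 ± 0.0862). The ranges of Cdkn1b and Cdkn2d overlapped, as did those of Ccng1 and Mdm2 and of each neighbouring pair from Cdkn1a down. By the mean of the mutants Trp53 was again first (57.0 ± 25.1 RPKM, n = 3) and Cdkn2b last (1.92 ± 0.712). Cdkn1a was at rank 4 by that mean (25.2 ± 14.5), which rested on mutant 1. Its level was 42.0 RPKM there, against 16.9 and 16.7 RPKM in mutants 2 and 3. In mutants 2 and 3 Cdkn1a was below Trp53, Cdkn2d, Cdkn2c, Ccng1 and Cdkn1b. Single mutants differed in the first gene too, which was Cdkn2d in mutants 1 and 2 and Trp53 in mutant 3. Only Cdkn1b and Mdm2 were neighbours whose ranges did not overlap in the mutants.

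Trp53 encodes p53 (ENSMUSG00000059552, chromosome 11, 69580359 to 69591873). It was at 168, 162 and 176 CPM in controls, against 257, 118 and 316 CPM in mutants 1, 2 and 3. Mutants 1 and 3 were 1.52-fold and 1.87-fold above the control mean and mutant 2 was at 0.701 of it, so the groups overlapped in range although no mutant fell among the controls. In the fit the log2 fold change was 0.44 ± 0.33 (adjusted p = 0.411 by edgeR), with 0.73 without mutant 2, where it passed (adjusted p = 0.0172), and 0.17 without mutant 3 (adjusted p = 0.746). The genes with the most similar pattern were Fam136a (r = 0.9985) and Wbp1 (r = 0.9981), at 12.2 and 32.8 CPM in mutant 2 and at 30.2 and 103 CPM in mutant 3. Wrap53, which starts 103 bases away on the other side of the promoter, was at 26.9 to 32.8 CPM in controls, against 34.4, 36.9 and 34.4 CPM in the mutants (adjusted p = 0.338).

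Mdm2, the ubiquitin ligase of p53 and itself a p53 target (ENSMUSG00000020184, chromosome 10, 117688875 to 117710758), differed least among the 10 genes. Controls had 93.5, 87.0 and 95.2 CPM, and mutants 1, 2 and 3 had 75.9, 78.0 and 90.1 CPM, with mutant 3 inside the control range. The fitted log2 fold change was -0.17 ± 0.14 (adjusted p = 0.471 by edgeR), and -0.10 without mutant 1. Cpm, a carboxypeptidase gene that lies 1522 bases from Mdm2, fell from 33.5 to 37.7 CPM in controls to 0.837, 0.390 and 0.469 CPM in the mutants (log2 -5.98 ± 0.38, adjusted p = 0.00153). Slc35e3, the nearest tested gene on the other side, was at 13.6 to 14.1 CPM in controls, against 7.04, 9.64 and 10.4 CPM in mutants 1, 2 and 3 (adjusted p = 0.172 by edgeR). Thus Cpm fell widely while Mdm2 stayed between 75.9 and 95.2 CPM in the 6 libraries.

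Ccng1 encodes cyclin G1, a p53 target that feeds back on Mdm2 (ENSMUSG00000020326, chromosome 11, 40748552 to 40755311). It was at 64.2, 60.8 and 67.4 CPM in controls, against 82.7, 71.8 and 148 CPM in mutants 1, 2 and 3. Every mutant was above every control, and mutant 3, which had the highest Trp53, was 2.30-fold above the control mean while mutant 2, with the lowest Trp53, was 1.12-fold above it. The fitted log2 fold change of 0.65 ± 0.27 did not pass (adjusted p = 0.166 by edgeR) but passed by limma-voom with sample weights (0.0359), and it was 0.31 without mutant 3 (adjusted p = 0.189). Cdkn1a, whose p53 match is printed with that of Ccng1, did not share this order, since its highest level was in mutant 1 and mutants 2 and 3 were level. The part of the Trp53 level in these patterns was not tested.

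The gene most like Cdkn1a over the 6 libraries was Rad23b, a nucleotide excision repair protein (r = 0.9998), followed by Ndufa11, a subunit of respiratory complex I (r = 0.9994). Rad23b rose from 85.5 to 91.0 CPM in controls to 151, 120 and 130 CPM in mutants 1, 2 and 3 (log2 0.62 ± 0.15, adjusted p = 0.0479 by edgeR), a far smaller change than that of Cdkn1a. Next to Cdkn1a on chromosome 17, Rab44, a GTPase gene 13417 bases away, rose from 1.96 to 3.90 CPM in controls to 30.0, 13.5 and 13.1 CPM (log2 2.80 ± 0.49, adjusted p = 0.0230). Trp53cor1, the long RNA also called lincRNA-p21 and known as a p53 target, lies 11796 bases away on the other side and was at 0 to 0.151 CPM in controls, against 2.32, 0.551 and 0.391 CPM in mutants 1, 2 and 3 (adjusted p = 0.0994). Cdkn1a, Rab44 and Trp53cor1 were all highest in mutant 1, the mutant that was highest for 36.1% of all tested genes. Of the 18 tested neighbours that are not among the 10 genes, 3 rose (Rab44, Atp1b2 and Nudcd2), 2 fell (Cpm and Dmrta1) and 13 did not pass. Over all tested genes 5.08% were higher and 6.90% lower.

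**Figure D4:**
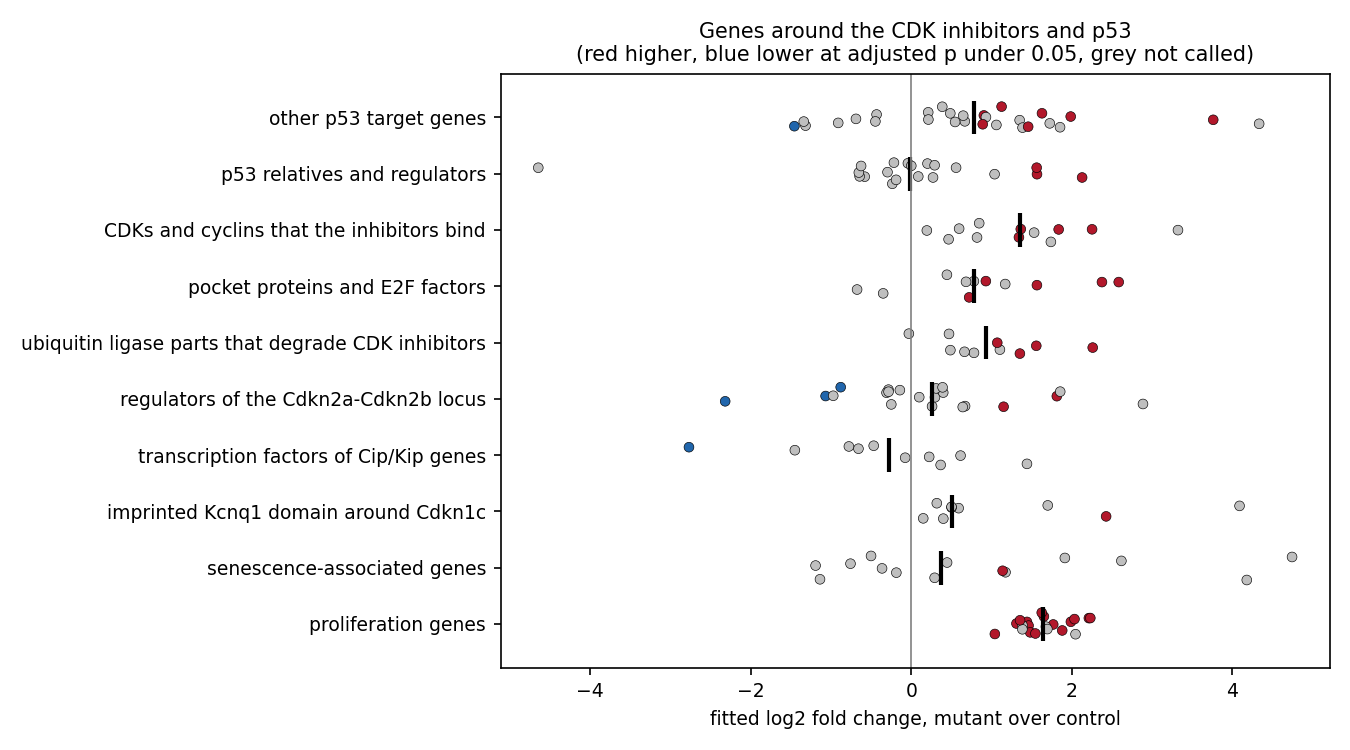
Fitted log2 fold change of mutant over control (horizontal axis) for each gene of the 10 surrounding lists (rows), coloured red or blue where the adjusted p was under 0.05 and grey otherwise, with list medians as black bars. The proliferation genes lie to the right of 0 with a median of 1.64, and the p53 targets spread to both sides with a median of 0.78.

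Other p53 targets rose in part. Of 28 genes 7 rose, 1 fell and 20 did not pass, against 5.08% higher and 6.90% lower over all tested genes. Their median log2 fold change was 0.78, against 0.10 over all tested genes. Apaf1, the core of the caspase-activating apoptosome, rose from 33.1 to 36.7 CPM in controls to 82.0, 64.1 and 79.0 CPM in mutants 1, 2 and 3 (log2 1.12 ± 0.16, adjusted p = 0.0134 by edgeR). Eda2r, a death receptor of the TNF family, rose from 0.244 to 0.492 CPM to 5.65, 1.14 and 9.59 CPM (log2 3.76 ± 0.83, adjusted p = 0.0382). Rps27l, Pidd1, Gtse1, Sesn2 and Polk were the others that rose, and Gtse1 is itself a cell cycle gene. Rrm2b, the p53-induced ribonucleotide reductase subunit, fell from 35.4 to 39.9 CPM to 11.6, 13.4 and 15.3 CPM (log2 -1.46 ± 0.19, adjusted p = 0.0116). Without any single control 0 of the 28 passed in either direction by edgeR, with 9 or 10 higher and 2 lower at an unadjusted p under 0.05, where 8.63% to 9.46% of all tested genes were higher and 10.3% to 10.6% lower. DESeq2 on all libraries called 12 of the 28 higher and 2 lower, against 14.5% and 14.4% of all tested genes.

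The p53 targets were not alike across the mutants. Of the 28 genes 16 (57.1%) had their highest mutant level in mutant 3, where Trp53 was highest too, 6 in mutant 1 and 6 in mutant 2, while over all tested genes 33.0% were highest in mutant 3. This count was made after the values were seen, and the part of the Trp53 level in it was not tested. Zmat3, an RNA-binding target of p53, was at 49.5, 35.0 and 140 CPM in mutants 1, 2 and 3 and at a mean of 20.5 CPM in controls (adjusted p = 0.0671), and Bbc3, which encodes the death protein PUMA, was at 26.3, 15.9 and 97.1 CPM against 13.7 CPM (adjusted p = 0.139). Bax, another death gene, was at 69.1, 39.9 and 89.5 CPM against 41.5 CPM (adjusted p = 0.159). Pmaip1, which encodes NOXA, had another order, at 119, 17.7 and 4.39 CPM in mutants 1, 2 and 3 against 29.9 CPM in controls.

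Among relatives and regulators of p53, 3 of 20 genes rose and 17 did not pass, against 5.08% higher and 6.90% lower over all tested genes. Their median log2 fold change was -0.02. Chek1, a kinase of the replication checkpoint, rose from 4.85 to 6.12 CPM in controls to 27.0, 19.5 and 24.6 CPM in mutants 1, 2 and 3 (log2 2.13 ± 0.24, adjusted p = 0.00853). Chek2, a kinase that acts on p53 after DNA breaks, rose to 31.3, 40.0 and 53.8 CPM from 11.8 to 15.6 CPM (log2 1.57 ± 0.27, adjusted p = 0.0209), and Hipk2 was the third that rose. Mdm4, the partner of Mdm2 in restraining p53, was at a mean of 300 CPM in controls, against 176, 162 and 263 CPM in mutants 1, 2 and 3 (adjusted p = 0.128). Rpl5 and Rpl11, ribosomal proteins that can bind Mdm2, were above the control means in mutants 1 and 3 and below them in mutant 2, the same split as Trp53.

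The kinases and cyclins that the inhibitors act on rose in part. Of 12 CDKs, cyclins and activators 4 rose and 8 did not pass, against 5.08% higher and 6.90% lower over all tested genes. Their median log2 fold change was 1.35. Ccnb1, the mitotic cyclin, rose from 15.0 to 27.1 CPM in controls to 73.3, 135 and 105 CPM in mutants 1, 2 and 3 (log2 2.25 ± 0.36, adjusted p = 0.0187), and Cdc25a, the phosphatase that activates CDK2, from 20.7 to 23.2 CPM to 58.4, 44.8 and 64.0 CPM (log2 1.34 ± 0.18, adjusted p = 0.0127). Cdk1 and Ccnd3 were the others. Cdk6, which the INK4 proteins inhibit, was at a mean of 45.4 CPM in controls, against 978, 86.4 and 317 CPM in mutants 1, 2 and 3 (adjusted p = 0.0538), and so was highest in mutant 1, where Cdkn2c lay within the control range.

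Of 11 pocket protein and E2F genes 5 rose (Rbl1, E2f1, E2f3, E2f7 and E2f8) and 6 did not pass, with a median of 0.78. The shares over all tested genes, 5.08% higher and 6.90% lower, stand beside this list and the next. E2f8, a repressor of E2F targets, rose to 86.1, 165 and 150 CPM from 18.0 to 31.6 CPM (log2 2.38 ± 0.37, adjusted p = 0.0167), and its relative E2f7 to 13.1, 21.8 and 29.8 CPM from 2.59 to 4.70 CPM (log2 2.58 ± 0.42, adjusted p = 0.0193). Of 10 ubiquitin ligase parts that act on CDK inhibitors 4 rose (Dtl, Skp2, Cks1b and Pcna) and 6 did not pass, with a median of 0.93. Dtl, the adaptor that takes p21 to degradation on replicating DNA, rose from 11.3 to 18.9 CPM to 83.9, 76.6 and 65.3 CPM (log2 2.26 ± 0.27, adjusted p = 0.00949), and Skp2, the adaptor for p27, from a mean of 12.2 CPM to 26.0, 39.4 and 26.4 CPM (log2 1.35 ± 0.27, adjusted p = 0.0298). Several genes of these 3 lists are cell cycle genes, and the 20 proliferation genes had a median of 1.64, with Mcm6 and Tyms at the smallest p (log2 1.77 ± 0.21 and 2.21 ± 0.26, adjusted p = 0.00909 and 0.00944).

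Of 10 transcription factors that act on Cip/Kip genes 1 fell and 9 did not pass, with a median of -0.27. The shares over all tested genes, 5.08% higher and 6.90% lower, stand beside this list and the senescence-associated genes. Foxo1, which activates Cdkn1b in resting cells and is abundant in lymphocytes, fell from 158 to 175 CPM in controls to 16.2, 19.3 and 37.1 CPM in mutants 1, 2 and 3 (log2 -2.77 ± 0.33, adjusted p = 0.00944 by edgeR). Smad4, the shared mediator of TGF-beta signals, was at 50.1 to 57.7 CPM in controls, against 20.8, 32.0 and 40.6 CPM (adjusted p = 0.110). Of 14 senescence-associated genes 1 was called, Lmnb1, a nuclear lamin whose loss is the mark of senescent cells, and it rose (73.1 to 95.1 CPM in controls, against 201, 149 and 217 CPM in mutants, log2 1.14 ± 0.20, adjusted p = 0.0225). Mmp3, a secreted protease, had the next smallest p in that list and did not pass (adjusted p = 0.0737).

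Counts of the 10 genes called under other analyses stand beside larger or smaller shares of all tested genes. With RLE factors 1 of the 10 was higher (5.30% of all tested genes higher, 6.78% lower), with upper-quartile factors 1 higher and 1 lower (3.78% and 7.55%), by limma-voom 1 higher (4.99% and 9.96%) and with sample weights 2 higher and 1 lower (9.29% and 9.36%). Cdkn1a was again the 1 gene higher with no expression filter (2.46% and 3.42%), without haemoglobin and immunoglobulin genes (4.78% and 6.20%) and with a variance for each group (3.57% and 3.89%). Without mutant 1, 2 or 3 in turn 2 were higher in each case, against 8.73%, 13.6% and 4.28% of all tested genes, and 0, 1 and 0 were lower, against 9.47%, 15.3% and 6.17%. Without control 1, 2 or 3 none of the 10 was called by edgeR, where 0.0294%, 0.0195% and 0.0392% of all tested genes were called higher and 0.636%, 0.581% and 0.627% lower. In each of these 3 fits 1 of the 10 was higher and 1 lower at an unadjusted p under 0.05, where 9.46%, 9.39% and 8.63% of all tested genes were higher and 10.6%, 10.6% and 10.3% lower. The genes called higher beside Cdkn1a were Cdkn2c without mutant 1, Trp53 without mutant 2 and Cdkn2a without mutant 3, a different gene for each mutant left out, and Cdkn1b was the gene called lower without mutant 2.

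**Figure D5:**
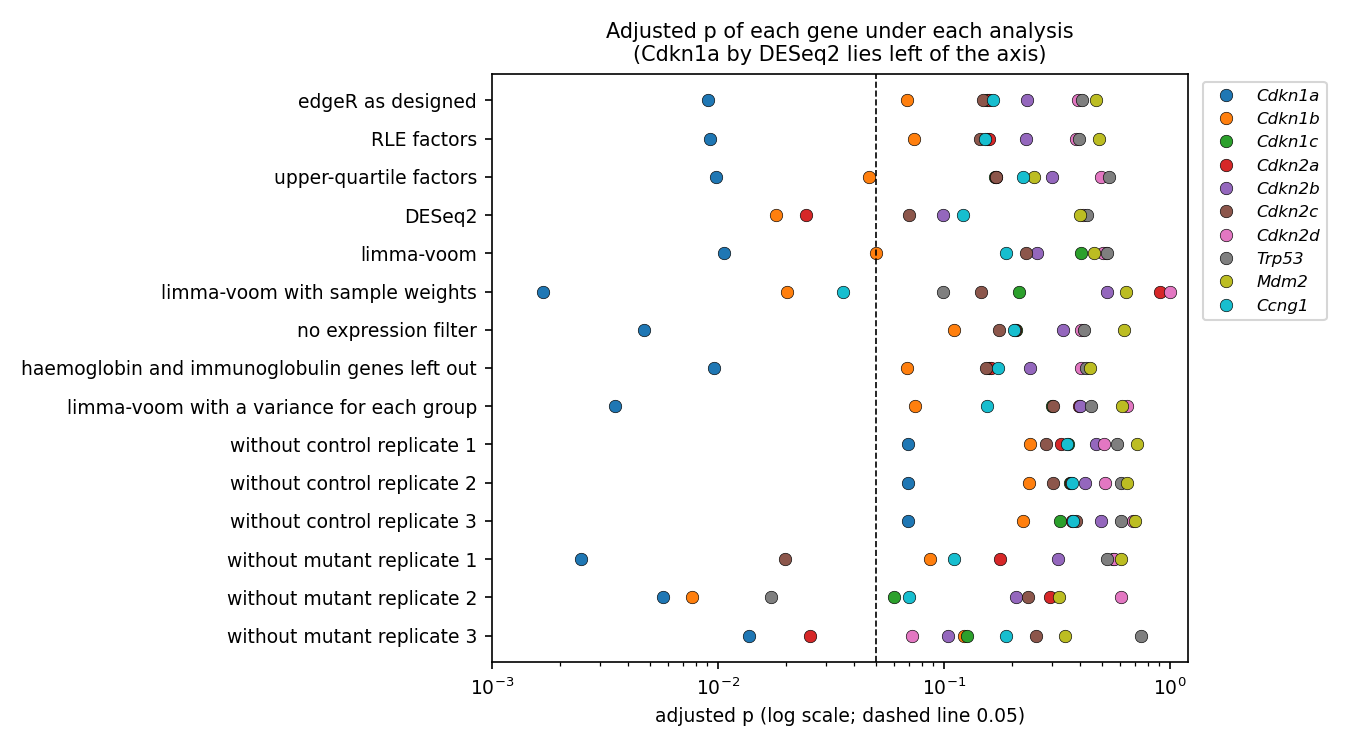
Adjusted p (horizontal log axis, dashed line at 0.05) of each of the 10 genes under each analysis (rows). Cdkn1a lies left of the line in every row except the 3 that leave out a control, the DESeq2 value of Cdkn1a (7.99e-14) falls outside the axis, and DESeq2 gave no adjusted p for Cdkn1c.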

How the data were processed

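Poly-A selected libraries were made with a strand-marking kit, per the labels' protocols. The authors deposited whole-number counts per Ensembl gene without normalization; the submitters' processing notes list STAR 2.5.3a, limma, mm10 and GRCm38, with no roles. The annotation release, whether counting used strand, and how reads of several genes were treated are not given here. Libraries held 72902118 to 79258116 counts. Symbols were found for 31669 of 31771 identifiers, positions and exon lengths came from GENCODE M21, and 0 columns lacked a sample. Replicate numbers follow accession order and pair no animals. The chi-square per gene between libraries of a group was 22.0 to 1490, above sampling noise.

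The test was edgeR 4.0.16 (R 4.3.3): TMM factors, expression filter by group, robust quasi-likelihood fit, adjustment over 19573 genes. CPM and RPKM use total counts without TMM factors. The SE is the log2 fold change over the square root of F. DESeq2 1.42.0 and limma 3.58.1 (voom) were alternatives, and limma-voom with group-specific variances was chosen after seeing the data. The fits were tested on simulated data. The genes and lists were chosen with earlier results of these data known. Named genes were the 10, the 2 of smallest p per surrounding list, called genes where 5 or fewer, the 2 most alike in log2 CPM (prior count 2, average at least 2) for Cdkn1a, Cdkn2a, Cdkn2c and Trp53, and tested neighbours. Xist, Ddx3y, Eda2r, Zmat3, Bbc3, Bax, Pmaip1, Mdm4, Rpl5, Rpl11, Cdk6 and Kcnq1ot1 were named after their values were seen. So were the other p53 targets called and the single cell type markers.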

Additional observations from a re-analysis of the deposited data

How the results depend on the processing

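The mutants varied more than the controls (biological coefficient of variation 73.2% against 17.1%), and this limits every call. No paired analysis was possible because the labels number no mutant with a control. Cdkn1a kept its direction in every analysis run and its call in all but those without a control, and it was the single member higher with the other scalings, without the expression filter, without haemoglobin and immunoglobulin genes, and by limma-voom with a common or a group variance. Members higher numbered 2 by DESeq2 and by limma-voom with sample weights, and 0 to 2 with each library left out. Members lower numbered 1 with upper-quartile factors, by DESeq2 and by limma-voom with sample weights, and 0 to 1 with each library left out. All genes higher and lower were 995 and 1351, and moved to 2841 and 2809 by DESeq2, to 1949 lower by limma-voom, to 1818 higher by limma-voom with sample weights, and to 762 lower with a variance for each group. Leaving out each library gave 4 to 2794 higher and 119 to 3137 lower. Of the 155 genes of the 10 surrounding lists 47 were called, against 76 by DESeq2, 24 with a variance for each group, and 0 to 77 with each library left out. Cdkn2d turned to a log2 fold change of -0.001 with sample weights. Upper-quartile factors moved the median of all genes by -0.102 and the split of calls to 739 higher and 1477 lower. The causes were not tested.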
